A study of Mus musculus with 6 samples.

Results

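The genes described here are the Toll-like receptor genes of the mouse, chosen by gene symbol. The 10 members were Tlr1 to Tlr9 and Tlr13, and all 10 were found among the 33924 genes of the deposited table. The libraries came from RPE/choroid, the retinal pigment epithelium scraped from the sclera together with the vessel layer beneath it, of C57BL/6J mice that carried no engineered allele and received no treatment. There were 3 young and 3 aged animals, and each library pooled both eyes of an animal. The sample labels give 1 to 2 months for the young mice and, for the aged mice, 20 to 24 months in the titles but 22 to 24 months in a second field. All animals are male by their labels, whereas the methods of the study describe both sexes and a somewhat older young group. RNA was depleted of ribosomal RNA and selected for poly(A) tails.

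The study asked how transcripts differ between young and aged RPE/choroid. The values analysed here were 1 mean per gene, taken by the authors over all 6 libraries, and the table gave no value for a single mouse. The levels below therefore describe young and aged tissue together. From these means no comparison of the age groups, no SD between mice and no test could be made. The authors' own comparison of the age groups was not used here. A gene that is expressed at only 1 age appears with its level diluted by the other age group. Fewer cells of a type and less RNA per cell cannot be told apart in tissue of this kind.

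Toll-like receptors are transmembrane sensors of microbial and damage-associated molecules. Leucine-rich repeats in the ectodomain bind the ligand, and a TIR domain inside the cell recruits adaptors, which lead to NF-kappaB, the interferon regulatory factors and the transcription of cytokines. Receptors for lipids and proteins of the microbial surface sit mainly at the cell surface, and receptors for nucleic acids sit in endosomes, where the chaperone Unc93b1 delivers them and proteases cut them. In the eye they are known from macrophages, microglia and the RPE itself.

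The Toll-like receptor transcripts covered a wide range in RPE/choroid. Per kilobase of transcript, 5 genes stood within a narrow band at the top, namely Tlr2, Tlr4, Tlr13, Tlr3 and Tlr7, and together they held 87.6% of the summed level of the family. Tlr8 was lower, Tlr1 and Tlr6 lower again, and Tlr5 and Tlr9 were the lowest of the family. The level per kb of Tlr2 was 167 times that of Tlr9. As the genes have transcripts between 3014 and 4407 bases long, levels are compared between genes as the authors' mean normalized count divided by the length in kilobases of the longest annotated transcript, or the level per kb. By the methods of the study the normalized counts were derived from TPM, a transcript abundance unit already divided by length. Whether the deposited means still scale with length is not known. Undivided means therefore stand beside the levels per kb of the receptors, and orders among the receptors that turn with the length are named. For pathway and marker genes the levels are per kb of transcript unless stated, and other orders among them may also turn with the length.

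**Figure D1:**
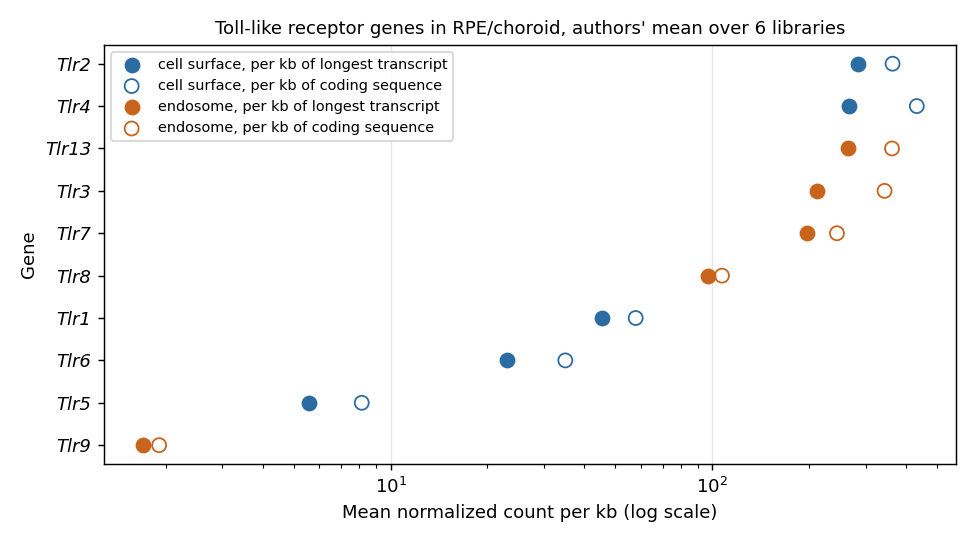
Level of each Toll-like receptor gene on a log axis, as the authors' mean normalized count over the 6 libraries divided by the length of the longest transcript (filled points) or of the coding sequence (open points) in kilobases. Blue marks cell surface receptors and orange endosomal receptors, no error bars can be drawn from 1 mean per gene, and the top 5 genes lie between 197 and 284 per kb of transcript while Tlr9 lies at 1.70.

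Before the single levels, the relation of Tlr1 and Tlr6 has to be shown, because it bears on how their reads could be assigned. In GRCm38 both genes are read from the minus strand of chromosome 5, Tlr1 (ENSMUSG00000044827) from 64924679 to 64933563 and Tlr6 (ENSMUSG00000051498) from 64952031 to 64960097, with 18467 bases between them. In each gene a single exon holds the whole coding sequence. The coding sequences were identical at 73.3% of aligned bases, the highest value among the 45 pairs of members. The second highest was 54.2%, for Tlr7 and Tlr8, and the median of the pairs was 48.1%. Coding sequences of Kit, Flt3, Cdh5 and Kdr, which belong to other families, aligned with the members at 39.1% to 48.3%, with a median of 46.0%.

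The likeness of Tlr1 and Tlr6 was concentrated in the later part of the coding sequence. From base 1330 to base 2170 of the 2385 coding bases of Tlr1, 98.8% of bases were identical to Tlr6, against 62.4% before this block and 72.1% after it. The longest run without a difference was 229 bases. It is shown because a read that falls inside it could have come from either gene, unless its mate covers a base that differs between them. It occupies coding bases 1468 to 1696 of Tlr1, at chr5:64925537-64925765, and coding bases 1507 to 1735 of Tlr6, at chr5:64953828-64954056. Capitals mark the run that both genes share, and lower case marks 12 bases of Tlr1 on each side, so the printed sequence covers chr5:64925525-64925777 of the minus strand.
Tlr1 with the shared run in capitals: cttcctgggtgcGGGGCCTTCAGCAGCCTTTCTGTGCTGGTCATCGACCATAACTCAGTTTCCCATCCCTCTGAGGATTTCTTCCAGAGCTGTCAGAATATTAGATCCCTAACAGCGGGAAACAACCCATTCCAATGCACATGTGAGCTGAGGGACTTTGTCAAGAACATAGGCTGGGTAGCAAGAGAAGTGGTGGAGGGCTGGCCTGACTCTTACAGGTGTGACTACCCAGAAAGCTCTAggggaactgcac

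For contrast, the stretch of 60 aligned bases without a gap in which the genes matched least is shown next. It lies in the earlier part of the coding sequence, at chr5:64926367-64926426 in Tlr1 and chr5:64954658-64954717 in Tlr6. Capitals mark the 28 bases that are the same in both.
Tlr1: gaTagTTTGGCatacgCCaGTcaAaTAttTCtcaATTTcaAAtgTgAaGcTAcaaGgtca
Tlr6: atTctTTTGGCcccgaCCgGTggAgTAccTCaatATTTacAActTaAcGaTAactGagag

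**Figure D2:**
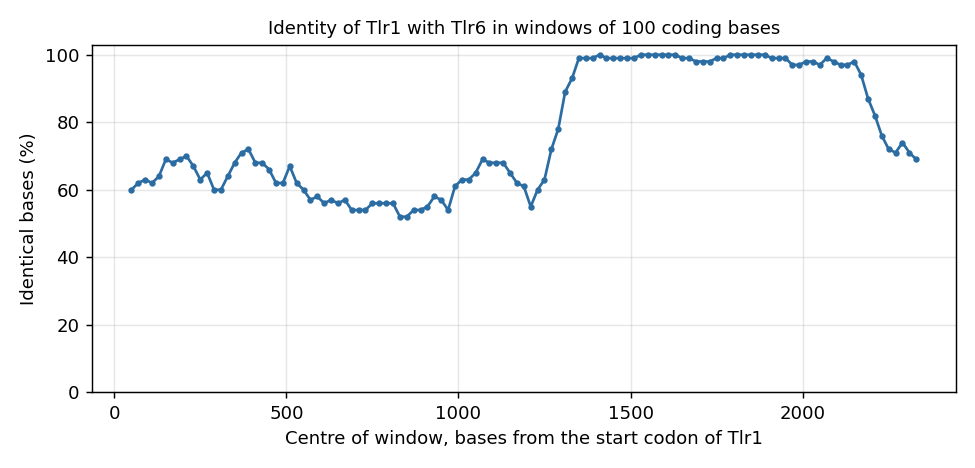
Percent of identical bases between Tlr1 and Tlr6 in windows of 100 bases, moved in steps of 20 along the coding sequence of Tlr1, plotted against the centre of the window in bases from the start codon. Of the 115 windows, 43 reached 90% and these formed 1 block from 1330 to 2170, and the lowest window was at 52%.

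The share of each receptor's sequence that is its own was measured with words of 31 bases along the longest transcript. In 7 of the 10 members no word occurred in a transcript of another gene. In Tlr1, 603 of 2995 words (20.1%) also occurred in Tlr6. In Tlr6, 628 of 3647 words (17.2%) occurred in other genes, 619 of them in Tlr1. In Tlr3, 87 words (1.99%) also occurred in Gm45542, a gene annotated on the opposite strand that overlaps 381 bases of its exons. The levels of Tlr1 and Tlr6 therefore depend in part on how the authors' quantification divided ambiguous reads, and how it did so was not tested. Whether the authors' counting used strand is not given in the sources used here, although the libraries were prepared with a stranded kit, so reads of Gm45542 may be included in the level of Tlr3.

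The cell surface receptors Tlr2 and Tlr4 were the most abundant of their group, with Tlr2 ahead per kb of the longest transcript and Tlr4 ahead per kb of coding sequence (432 against 363), undivided and with the median transcript length. Tlr2 (ENSMUSG00000027995; chromosome 3, 83836272 to 83841767, minus strand), which recognizes bacterial lipoproteins, averaged 855 normalized counts, or 284 per kb. Its protein has 784 residues, encoded in 1 exon. Tlr2 acts as a heterodimer with Tlr1 for triacylated and with Tlr6 for diacylated lipopeptides. Tlr1 averaged 138 normalized counts, or 45.6 per kb, and Tlr6 averaged 84.4 normalized counts, or 23.0 per kb. Tlr2 transcript was thus 6.22 times as abundant as Tlr1 and 12.4 times as abundant as Tlr6 per kb. These ratios carry the uncertainty from the bases that Tlr1 and Tlr6 share. The ratio of Tlr1 to Tlr6 was 1.98 per kb of transcript and 1.65 per kb of coding sequence.

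Tlr4 (ENSMUSG00000039005; chromosome 4, 66827584 to 66930284, plus strand), the receptor for lipopolysaccharide, had the highest mean normalized count of the family, 1083, and a level per kb of 266. The ratio of Tlr2 to Tlr4 was 1.07 per kb of transcript and 0.841 per kb of coding sequence. Lipopolysaccharide reaches Tlr4 through Lbp, Cd14 and the co-receptor Ly96, also known as MD-2. The level per kb of Ly96 was 369, which is 1.39 times that of Tlr4, and that of Cd14 was 247, which is 0.931 times that of Tlr4. Undivided, both stood below Tlr4, with 246 for Ly96 and 406 for Cd14 against 1083. The order of Ly96 and Tlr4 thus turns with the length. Lbp, a secreted carrier of lipopolysaccharide, stood at 1224 per kb. Cd180, a relative of Tlr4 with no TIR domain, was at 21.2 per kb, whereas its partner Ly86 was at 306. Transcripts of Tlr4, Ly96 and Cd14, the parts of the lipopolysaccharide receptor at the membrane, were thus all present in the averaged tissue, at 266, 369 and 247 per kb.

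Tlr5 (ENSMUSG00000079164; chromosome 1, 182954788 to 182976044, plus strand), which binds bacterial flagellin, averaged 21.3 normalized counts, or 5.58 per kb. Of the genes with a mean above 0 and an annotated transcript, 23.6% had a lower level per kb than Tlr5, and within the family it stood above Tlr9 alone.

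Among the endosomal receptors, Tlr13 (ENSMUSG00000033777; chromosome X, 106143204 to 106160493, plus strand) was highest per kb of the longest transcript, per kb of coding sequence and undivided, but not with the median transcript length, where Tlr3 and Tlr8 stood above it. Tlr13 recognizes a sequence in bacterial 23S ribosomal RNA and has no counterpart in humans. It averaged 1076 normalized counts, or 265 per kb, beside 266 per kb for Tlr4. Tlr3 (ENSMUSG00000031639; chromosome 8, 45395665 to 45411080, minus strand), the sensor of double-stranded RNA, averaged 932 normalized counts, or 211 per kb.

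Tlr7 and Tlr8, related receptors known for the sensing of single-stranded RNA, lie on the minus strand of chromosome X with 40599 bases between them. Tlr7 (ENSMUSG00000044583) spans 167304929 to 167330558 and Tlr8 (ENSMUSG00000040522) spans 167242696 to 167264329. Tlr7 averaged 769 normalized counts, or 197 per kb. Tlr8 averaged 332 normalized counts, or 96.7 per kb, so Tlr7 was 2.04 times as abundant per kb of transcript and 2.28 times per kb of coding sequence. With the median transcript length the order turned, with Tlr8 at 676 and Tlr7 at 399 per kb. No word of 31 bases of either transcript occurred in another gene.

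Tlr9 (ENSMUSG00000045322; chromosome 9, 106222598 to 106226883, plus strand), the sensor of unmethylated CpG DNA, was the lowest member. Its mean normalized count was 5.90, which amounts to 35.4 normalized counts over the 6 libraries together, and its level per kb was 1.70. Tlr9 was the 1 member below a mean normalized count of 10, a level that 18479 of the 33924 genes of the table reached. Per kb, Tlr7 was at 116 times and Tlr13 at 156 times the level of Tlr9. All of these proteins use Unc93b1 and signal through Myd88. With so few counts the level of Tlr9 is the least precise of the family, and the spread between mice is unknown.

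In the order of levels per kb, Tlr2 exceeded Tlr4 by a factor of 1.07, Tlr4 and Tlr13 were level at 266 and 265, Tlr3 followed Tlr13 by a factor of 1.25, and Tlr7 followed Tlr3 by a factor of 1.07. Larger steps came below them, of 2.04 from Tlr7 to Tlr8, 2.12 from Tlr8 to Tlr1, 1.98 from Tlr1 to Tlr6, 4.12 from Tlr6 to Tlr5 and 3.29 from Tlr5 to Tlr9. Which neighbors differ beyond the spread between mice cannot be said from 1 mean per gene. The 5 endosomal receptors together held 55.3% of the summed level per kb of the family and the 5 cell surface receptors 44.7%.

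Set against the whole transcriptome, the abundant receptors were of middling level. Of the 25517 genes with a mean above 0, 71.6% had a lower mean normalized count than Tlr4, 71.5% a lower one than Tlr13, 69.1% than Tlr3, 67.6% than Tlr2 and 65.9% than Tlr7. The percentile was 54.6 for Tlr8, 46.3 for Tlr1, 42.4 for Tlr6, 32.7 for Tlr5 and 23.9 for Tlr9. The 10 genes added up to 5295 of the 40816668 mean normalized counts of the table, or 0.0130%.

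**Figure D3:**
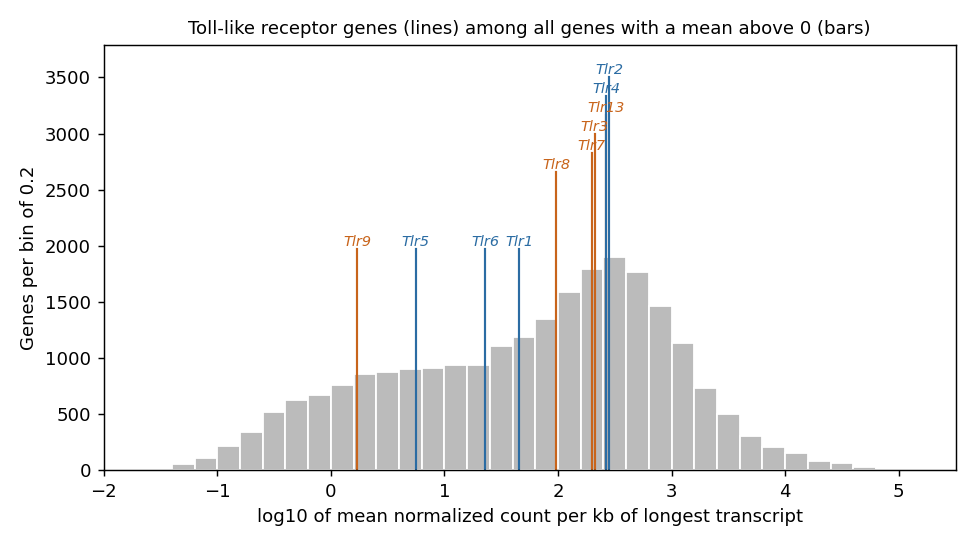
Distribution of the level per kb over the 24089 genes with a mean above 0 and an annotated transcript, as genes per bin of 0.2 on the log10 scale, with a line for each Toll-like receptor gene (blue for cell surface, orange for endosome). The 6 highest receptors lie to the right of the median of all these genes, 90.8 per kb, and Tlr9 lies lowest of the family.

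The other mouse genes of the family were low. Tlr11 and Tlr12, which recognize profilin of protozoan parasites and have no working counterpart in humans, had levels per kb of 9.61 and 16.6. Both were above Tlr5 and Tlr9 and below Tlr6.

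The chaperones of the endosomal receptors exceeded each single client. Summed, the endosomal receptors stood at 772 per kb against 901 for Unc93b1, but undivided at 3114 against 2042. Unc93b1, which carries nucleic acid-sensing receptors out of the endoplasmic reticulum, stood at 901 per kb, 3.40 times the level of Tlr13. Hsp90b1 and Cnpy3, which fold Toll-like receptors, stood at 5014 and 1519 per kb. All 9 accessory genes listed had a mean normalized count of at least 10, as did 18479 of the 33924 genes of the table. The accessory genes had a median of 901 per kb, with Cd180 as the lowest. The 5 endosomal proteases that can cut receptors were Ctsb, Ctsk, Ctsl, Ctss and Lgmn. Their median was 6663 per kb, from 2972 for Ctsk to 36722 for Ctss. Undivided, Ctsb was highest, at 68311 against 49758 for Ctss. The RPE is known to be rich in lysosomal proteases, but which cells held these transcripts was not tested.

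Among the adaptors, Myd88, which serves every member except Tlr3, was highest at 261 per kb of transcript, next to Tlr13 in the order of the 80 receptor and pathway genes. Per kb of coding sequence Myd88 stood at 722, above every receptor. Undivided it stood at 641, below Tlr4, Tlr13, Tlr3, Tlr2 and Tlr7. Ticam1, also known as TRIF, which serves Tlr3 and Tlr4, was at 72.9 per kb, so Myd88 exceeded it 3.58 times, or 7.26 times per kb of coding sequence, and Tlr3 exceeded it 2.90 times, or 3.45 times per kb of coding sequence. Tirap, the bridge from Tlr2 and Tlr4 to Myd88, was at 50.8 per kb, or 312 per kb of coding sequence, and Sarm1 was at 49.2 per kb. Ticam2, also known as TRAM, which joins Tlr4 to Ticam1, was lowest at 7.48 per kb. The median of the 6 adaptors was 61.9 per kb, against 147 for the 10 receptors. Per kb of coding sequence these medians were 155 and 176, and undivided they were 236 and 550.

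The 14 genes listed as kinases and ligases downstream had a median of 387 per kb. Each had a mean normalized count of at least 10, as did 18479 of the 33924 genes of the table. Chuk, a kinase of the inhibitor of NF-kappaB, was highest at 1090 per kb, and Ikbke, a kinase that acts on interferon regulatory factors, lowest at 50.7. Per kb of coding sequence Ikbkg, which is on this list as a regulatory subunit and not a kinase, was highest at 1956, above Chuk at 1708. Irak2 stood at 763, Irak1 at 381 and Irak4 at 116 per kb. Transcription factors had a median of 310 per kb over 10 genes. Irf3, which acts after Ticam1, reached 1042 per kb, whereas Irf5, Irf7 and Irf8 lay between 259 and 323. Rel was lowest at 2.12 per kb, while Rela was at 330 and Nfkb1 at 552.

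Inhibitors of the pathway were present at a median of 244 per kb over 9 genes. Nfkbia, which holds NF-kappaB in the cytoplasm, was at 1311 and Tollip, a restraint on Irak1, at 1278 per kb. Irak3, an Irak family member with an inhibitory role in macrophages, was at 59.3 per kb, and Socs1 was lowest at 47.4. Per kb of coding sequence Irak3 was lowest, at 101 against 217 for Socs1. The cytokines that the receptors can induce had a median over 15 genes of 58.2 per kb of transcript but 168 per kb of coding sequence, beside 176 for the receptors. Undivided, their median was 54.9 and that of the receptors 550. Of the 15 cytokine genes 11 had a mean normalized count of at least 10, against 18479 of the 33924 genes of the table. Ccl2 was highest at 179 per kb, Il1b was at 110, Ptgs2 at 94.9 and Tnf at 26.8. Undivided, Ptgs2 was highest at 423 and Ccl2 stood at 196. Il6, Il10, Cxcl2 and Ifnb1 were below the mean normalized count of 10, at 8.13, 5.31, 9.75 and 1.36.

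**Figure D4:**
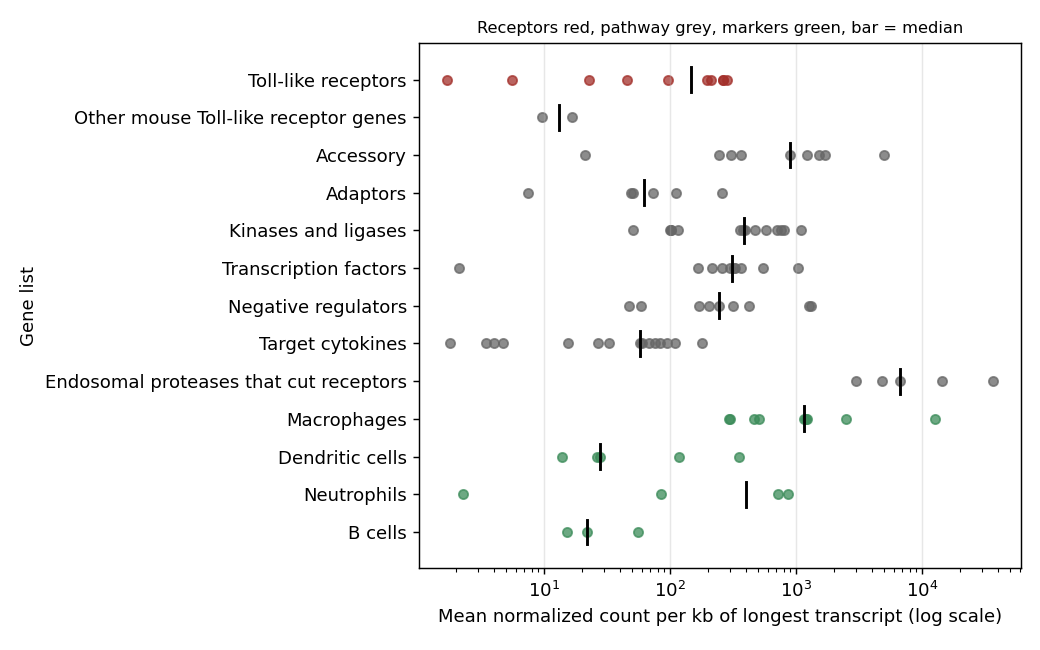
Level per kb on a log axis for each gene of the receptor family (red), of 8 pathway lists (grey) and of 4 lists of leukocyte markers (green), with a black bar at the median of the list. The receptors have a median of 147 per kb, the adaptors of 61.9, the cytokines of 58.2, the endosomal proteases of 6663 and the macrophage markers of 1159.

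The tissue label was checked against markers. Among 6 RPE markers, Ttr, Rgr, Rpe65, Rlbp1 and Lrat had levels per kb between 9523 and 335233, and Best1 had 39.3. Markers listed for other cells were also found in the averaged libraries. Markers of rods had a median of 10358 per kb, of melanocytes 28044, of skeletal muscle 12809 and of fibroblasts 1010. Those of Schwann cells had 520, of mast cells 422 and of endothelium 1079, and Hba-a1 of red cells stood at 54141. The melanocyte list holds Tyr, Pmel and Mlana, and whether melanocytes or the pigmented RPE held these transcripts was not tested. Of the leukocytes that are known for Toll-like receptors, macrophages had the highest median of markers, 1159 per kb over 9 genes, with Itgam lowest at 296. Csf1r, the receptor for macrophage colony-stimulating factor, was at 1217 per kb, 4.59 times the level of Tlr13. Dendritic cell markers had a median of 28.1 per kb, with Xcr1 lowest at 13.9, Zbtb46 at 118 and Itgax highest at 356. B cell markers had a median of 22.0, T cell markers of 28.6 and neutrophil markers of 402. The neutrophil markers ran from 2.27 for Ly6g to 866 for S100a9. Siglech, a marker of plasmacytoid dendritic cells, which are known for Tlr7 and Tlr9, was at 26.5 per kb. Which of these cells, or the RPE itself, held the Toll-like receptor transcripts was not tested.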

How the data were processed

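The authors sequenced poly(A)-selected RNA of RPE/choroid from 6 mice, 3 young and 3 aged. According to the study's methods, reads were trimmed with BBDuk, mapped with STAR to the GRCm38 transcripts of Ensembl and quantified with Sailfish as TPM. These were transformed into normalized counts by scaling to total counts, so division by length here may correct for length again. The submitters' processing notes name STAR, DESeq2 and GRCm38.

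The deposited signal used here is the authors' mean normalized count of each gene over all 6 libraries. Its values add up to 40816668, and the lowest above 0 is 0.157. The depth of single libraries is unknown. The other 5 numeric columns hold the authors' own comparison of the age groups (fold change, standard error, statistic, p and adjusted p). They were not used. The planned test of the age groups needed values per library and was not run.

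Gene positions and lengths came from GENCODE M21 on GRCm38, which matched 91.5% of the genes by symbol or synonym, 94.4% of those with a mean above 0. Levels per kb divide the mean by the longest transcript. Across 15534 protein-coding genes with a mean of at least 10, the rank correlation of the mean with this length was 0.10, as a description. Coding sequences were aligned globally with Biopython 1.88 (match 2, mismatch -2, gap opening -6, gap extension -1), which was tested on simulated data. Other steps used Python 3.11.15, numpy 2.4.6 and pandas 2.3.3, and figures used matplotlib 3.10.9.

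All members are named, as are genes from 8 pathway lists and 14 marker lists. The members and lists were chosen with earlier results of these data known. The genes Kit, Flt3, Cdh5 and Kdr for the alignment were chosen after the table was seen, from the marker lists. Hbb-bs was not matched to the table, and Adgre1 and Cgas were found under the older symbols Emr1 and E330016A19Rik. Protein sequences were not used here.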

Additional observations from a re-analysis of the deposited data

How the results depend on the processing

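Limits on these levels come from having 1 mean per gene. No paired analysis was possible because single libraries have no values in the table. The planned fits with edgeR and DESeq2, with a filter or none, another pseudocount, each replicate left out or a replicate block, were not run either. A percentile among genes with a mean of at least 10 could not be given for Tlr9.

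The number of members reaching the minimum mean normalized count was 9 at 10, 10 at 1 and 8 at 50. The number of pathway genes was 66, 70 and 60 of 70. Of all 33924 genes of the table, 18479 reached 10. The genes of the table reaching 1 or 50 were not counted, so these counts describe the lists alone. The endosomal share of the summed level was 55.3% per kb of transcript, 54.1% per kb of coding sequence and 58.8% without division by length. With the coding length 2 members changed their place in the order, Tlr2 and Tlr4. Without division 4 did, and the order began with Tlr4, Tlr13, Tlr3 and Tlr2. The 5 highest members were the same in both. The medians of the pathway lists by coding length and undivided were added after seeing the data. With the median transcript length, which is 707 bases for Tlr3 and 491 for Tlr8 against 3014 for Tlr2, 4 members changed place. The order then began with Tlr3, Tlr4, Tlr8, Tlr13, Tlr7 and Tlr2, so Tlr2 fell to place 6 and Tlr8 rose to place 3. The levels moved from 211 to 1318 for Tlr3, from 266 to 862 for Tlr4 and from 96.7 to 676 for Tlr8.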

Other observations

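Other sensors of microbes and nucleic acids were looked up after the table was seen. All 8 genes of cytosolic RNA and DNA sensing had a mean normalized count of at least 10, as did 18479 of the 33924 genes of the table. The median of the 8 genes was 155 per kb. Ddx58, which encodes the RNA sensor RIG-I, was at 432 per kb and Ifih1, which encodes MDA5, at 282, both above Tlr3 at 211. Their adaptor Mavs was at 239. Tmem173, which encodes STING, was at 177 per kb, and Cgas, the DNA sensor upstream of it, at 14.3. Of 6 NOD-like receptor genes, Nod1 was highest at 290 per kb, beside 284 for Tlr2, whereas Nod2 was at 7.82 and Nlrp3 lowest at 5.75. As for the Toll-like receptors, these are levels over both age groups together.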
